A study of Mus musculus with 18 samples.

Results

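Gene expression in MaSC-enriched cells was compared with that in luminal progenitor cells of the mouse mammary gland, using 10 of the 18 arrays of the series: 5 MaSC-enriched and 5 luminal progenitor arrays, each pair from 1 mouse pool. All arrays that the labels assign to either subset were taken, and every gene measured on them was included (16324 genes). Both subsets were sorted from female FVB/N mice that carried no transgene or treatment named in the sources used here, in 5 pools of 3 to 5 mice. After depletion of endothelial and blood cells with antibodies against CD31, CD45 and TER119, MaSC-enriched cells were gated as CD29hi CD24+ CD61+, and luminal progenitor cells as CD29lo CD24+ CD61+. The other arrays of the series, 5 of mature luminal cells (CD29lo CD24+ CD61-) and 3 of stromal cells (CD29lo CD24-), entered the model for its estimate of the spread and are quoted where they place a gene. The MaSC-enriched gate is defined by surface proteins and is a mixture, in which mature myoepithelial cells and, probably, basal progenitors accompany the stem cells. The age of the arrayed mice is not given in the sources used here.

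The mammary epithelium has a pair of layers. The basal layer lies on the basement membrane and is made mostly of myoepithelial cells, which contract in response to oxytocin and push milk along the ducts, and it is also where cells that can regrow a gland on transplantation are found. The luminal layer faces the duct, seals it with tight junctions and, in lactation, makes milk. Luminal progenitors are the cells of that layer that form colonies in culture, carry the receptor tyrosine kinase Kit and depend on the transcription factor Elf5 for alveolar development.

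Levels below are the authors' deposited values, normalised probe intensities on the log2 scale, so that a difference of 1 is a doubling of intensity. A gene with several probes is represented by its brightest. A log2 difference is MaSC-enriched minus luminal progenitor from a weighted limma model over all 18 arrays with the mouse pool as a block, and it can depart from the plain difference of the group means. A gene was called higher or lower in MaSC-enriched cells where the adjusted p was under 0.05 and the fold change over 1.5. In these terms 1841 genes (11.3%) were higher and 1777 genes (10.9%) were lower in MaSC-enriched cells, against a median log2 difference of -0.02 over all genes. The background level, taken from probes of olfactory and vomeronasal receptors, lay between 5.10 and 5.44 on the log2 scale. Of the higher genes, 1567 were above luminal progenitor in all 5 mouse pools and 260 in 4 of them, and of the lower genes, 1443 were below in all 5 pools and 307 in 4. All 5 MaSC-enriched arrays lay above all 5 luminal progenitor arrays for 994 genes (6.09%) and below them for 969 genes (5.94%). The higher side reached further: 514 genes were higher by 4-fold or more and 79 by 16-fold or more, while 365 were lower by 4-fold or more and 4 by 16-fold or more. At the other end, 7064 genes (43.3%) had a 95% interval of the difference that lay wholly within 1.5-fold in either direction.

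**Figure D1:**
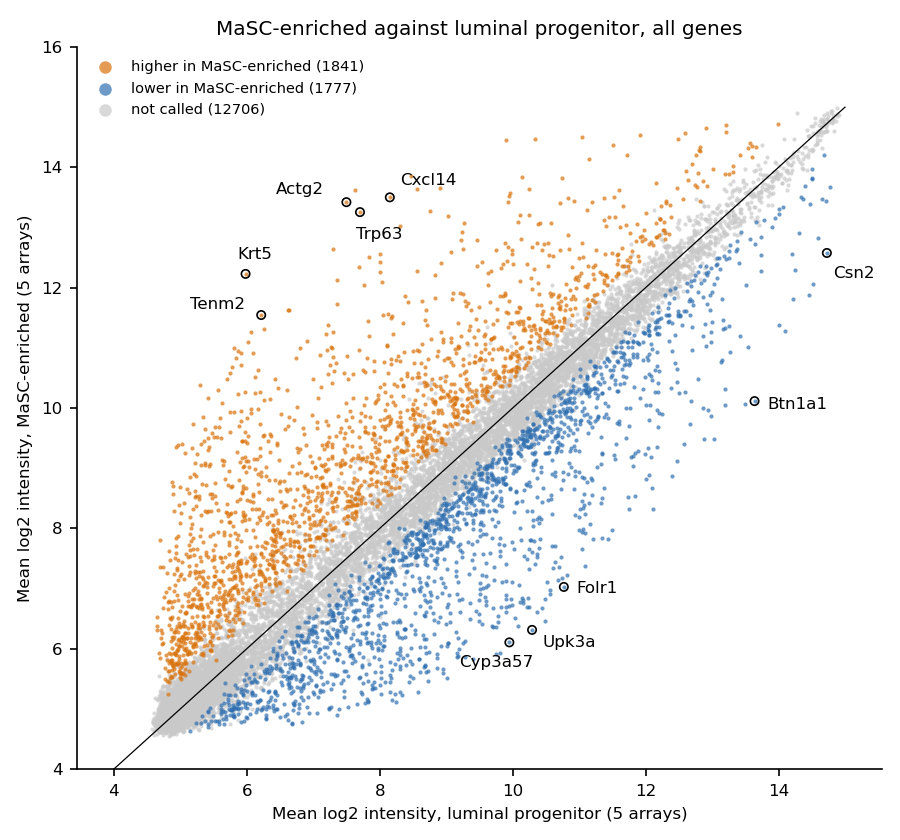
Mean log2 intensity of 16324 genes in luminal progenitor arrays (horizontal) and MaSC-enriched arrays (vertical), 5 arrays each. The 1841 genes called higher in MaSC-enriched cells are drawn in orange and the 1777 called lower in blue. Labelled genes include some of the largest differences, such as Krt5 and Actg2 above and Upk3a and Folr1 below. Csn2, with a smaller log2 difference of -2.51, is labelled too.

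Before the gene groups, mouse pools 3 and 4 have to be set apart. In both, markers of each subset were less separated than in the other pools, and endothelial markers were high. The mean log2 level of 14 luminal progenitor markers was 9.33 and 9.01 in MaSC-enriched arrays of pools 3 and 4 and between 7.26 and 7.49 in those of pools 1, 2 and 5, against 9.66 to 10.7 in luminal progenitor arrays. That of 15 basal markers was 11.5 to 12.7 in MaSC-enriched arrays, against 9.65 and 9.23 in luminal progenitor arrays of pools 3 and 4 and 7.39 to 8.31 in those of the other pools. The 12 endothelial markers averaged 11.9 and 11.4 in MaSC-enriched arrays of pools 3 and 4 and 8.23 to 9.23 in the others, against 10.17 and 11.05 in luminal progenitor arrays of these pools and 6.85 to 7.77 in the others. The order of the subsets nevertheless held in every pool for the basal and the luminal progenitor list. The median difference over the higher genes was 1.54, 1.43, 0.98, 1.10 and 1.70 on the log2 scale in pools 1 to 5, and over the lower genes -1.32, -1.14, -0.73, -0.86 and -1.37. Luminal progenitor replicate 4 also had the highest background level and the lowest quality weight, 0.171. Without the 4 arrays of pools 3 and 4, 2054 genes were higher and 2075 lower, and 1744 and 1689 of these were the genes called with all arrays. In bulk samples such as these, fewer cells of a type and less RNA per cell cannot be told apart.

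**Figure D2:**
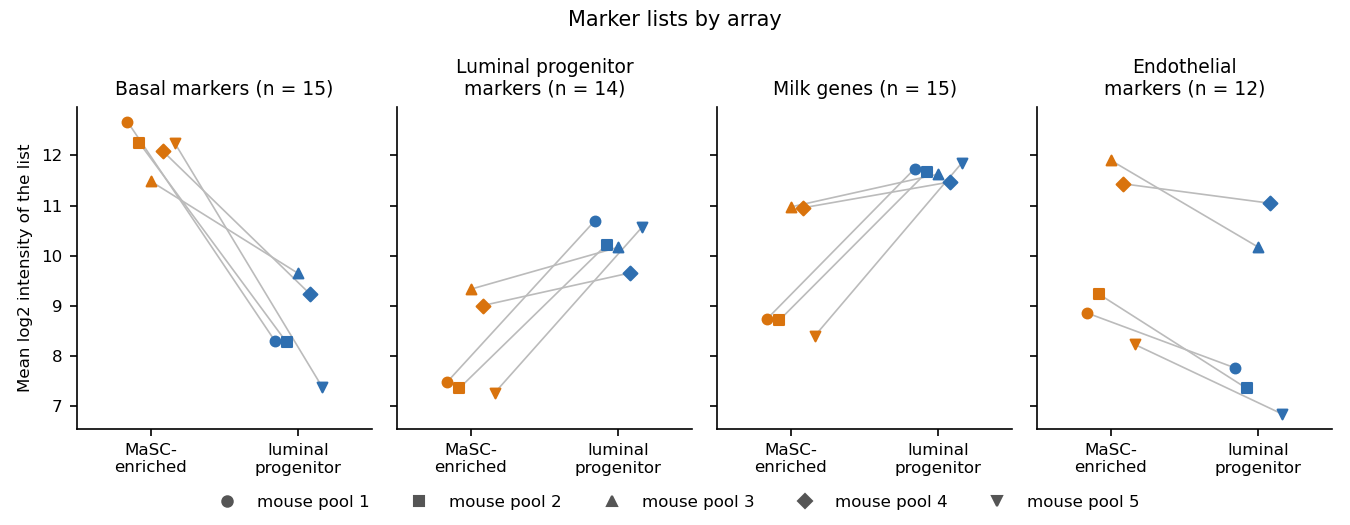
Mean log2 level of 4 marker lists on each of the 10 arrays, with MaSC-enriched arrays (orange) left of luminal progenitor arrays (blue) and lines joining arrays of 1 mouse pool, numbered 1 to 5. The subsets lie closer together in pools 3 and 4 for basal, luminal progenitor and milk genes, and endothelial markers are highest in those pools in both subsets.

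The gate itself was visible in the transcripts in part. Itgb1, which encodes CD29, measured 9.61, 8.96, 8.40, 7.87 and 9.05 in MaSC-enriched arrays of mouse pools 1 to 5, against 8.39, 8.09, 7.78, 7.94 and 8.44 in luminal progenitor arrays. The groups overlapped, the MaSC-enriched level was the higher one in 4 of 5 pools, and the log2 difference of 0.76 ± 0.21 (SE) passed the test (adjusted p = 0.00878, limma) but fell short of it without MaSC-enriched replicate 1 (log2 difference 0.53). Cd24a was lower in MaSC-enriched arrays in every pool, at 7.49 ± 0.65 in MaSC-enriched arrays and 8.33 ± 0.76 in luminal progenitor arrays log2 units (SD, n = 5 each; log2 difference -1.03, adjusted p = 0.0042, limma). Itgb3, the CD61 subunit on which both subsets were positive, was close to background in both, at 5.57 ± 0.31 in MaSC-enriched arrays and 5.65 ± 0.48 in luminal progenitor arrays (log2 difference -0.27, 95% interval -0.64 to 0.10, not called). Ptprc (CD45), one of the depletion markers, was at or below background on all 5 MaSC-enriched arrays and on 4 of 5 luminal progenitor arrays. Pecam1 (CD31), another, was not: it measured 9.39, 9.78, 12.67, 11.79 and 7.65 in MaSC-enriched arrays, against 7.87, 7.73, 10.66, 10.73 and 7.16 in luminal progenitor arrays. Pools 3 and 4 were the high ones in both subsets, the groups overlapped, and the log2 difference of 1.56 was not called (adjusted p = 0.097, limma).

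All 15 measured members of the basal and myoepithelial marker list were higher in MaSC-enriched cells, with a median log2 difference of 4.31. Krt5, a keratin of basal epithelia, had the largest difference of all genes. It measured 12.69, 12.76, 11.15, 11.98 and 12.57 in MaSC-enriched arrays, against 5.67, 5.76, 7.56, 5.16 and 5.77 in luminal progenitor arrays. The groups were far apart, and the luminal progenitor array of pool 3 was the highest of its group (log2 difference 6.12 ± 0.53, adjusted p = 3.15e-08, limma). Trp63, the transcription factor that maintains basal cells of stratified and glandular epithelia, measured 13.65, 13.61, 13.15, 13.05 and 12.82 in MaSC-enriched arrays, against 7.40, 7.28, 9.96, 8.56 and 5.32 in luminal progenitor arrays. Again every MaSC-enriched array was above every luminal progenitor array, with pool 3 closest (log2 difference 5.53, adjusted p = 1.43e-06, limma). Oxtr, the oxytocin receptor, had a call that single omissions ended: its log2 difference of 1.70 (adjusted p = 0.0109, limma) rested on high values in pools 1 and 2, and without MaSC-enriched replicate 1 or 2 it was 0.86 or 1.31 and was not called. Conversely, 14 of 16 measured luminal markers were lower, with a median log2 difference of -1.84. The exceptions were Tfap2c, an AP-2 transcription factor, with a log2 difference of 0.73, and Prom2, a membrane glycoprotein, with -0.30, and neither was called. For Tfap2c, though, 2 of 3 probes were called higher, its MaSC-enriched arrays all lay above the luminal progenitor arrays, and it was called with the 10 MaSC-enriched and luminal progenitor arrays alone (0.75), with the 15 epithelial arrays alone (0.74) and with the mean of its probes (0.98).

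The contractile apparatus of smooth muscle was the most uniformly higher group after the markers themselves. Of 15 genes 14 were higher, with a median log2 difference of 3.21, and Synpo2 alone was not called. Acta2, Myh11 and Mylk, given below, also stand on the basal and myoepithelial marker list, so both results share genes. Actg2, the enteric smooth muscle actin, measured 13.83, 13.82, 12.02, 13.39 and 14.05 in MaSC-enriched arrays, against 6.90, 6.94, 8.95, 9.57 and 5.14 in luminal progenitor arrays. The groups did not overlap, and the luminal progenitor values spread widely, from near background in pool 5 to 9.57 in pool 4 (log2 difference 6.12 ± 0.67, adjusted p = 6.97e-07, limma). Differences of similar size were found for the motor and its regulators: the log2 difference was 5.87 for the smooth muscle myosin heavy chain Myh11, 5.27 for its regulatory light chain Myl9, 4.58 for the light chain kinase Mylk and 4.91 for the tropomyosin Tpm2. Acta2, the usual myoepithelial actin, differed by 1.75 on the log2 scale, and its level was high in both subsets, at 14.65 ± 0.15 in MaSC-enriched arrays and 12.91 ± 1.40 in luminal progenitor arrays (SD, n = 5 each). The MaSC-enriched level lay near 15.09, the highest of any gene on these arrays, so the difference may be understated. Myocd, the coactivator of serum response factor on smooth muscle promoters, was higher by 1.31. A potassium channel that acts in smooth muscle followed the same direction. The log2 differences were 4.33 for Kcnmb1 and 1.64 for Kcnma1, the beta and alpha subunits of the large-conductance calcium-activated channel. Mrvi1, not a channel but a target of cGMP-dependent kinase in smooth muscle, was higher by 5.12, and 1 other probe of it was not called. Kcnn4 and Kcnk5, channels of epithelia, had log2 differences of -3.28 and -2.77, and overall 5 of 17 potassium channel genes were higher and 3 lower.

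Serum response factor binds the CArG box, CC and GG around 6 bases of A or T. It was searched on both strands in the window from 250 bases before to 50 after each RefSeq start site (GRCm38.p6), where 11 of the 15 contractile genes had an entry. It was found for 1 of them, Myl9, and for 1.81% of 27025 genes overall. That promoter, on the plus strand of chr2:156775214-156775513, is shown because its gene is among the 15 largest differences, with the match in capitals.
Myl9 promoter: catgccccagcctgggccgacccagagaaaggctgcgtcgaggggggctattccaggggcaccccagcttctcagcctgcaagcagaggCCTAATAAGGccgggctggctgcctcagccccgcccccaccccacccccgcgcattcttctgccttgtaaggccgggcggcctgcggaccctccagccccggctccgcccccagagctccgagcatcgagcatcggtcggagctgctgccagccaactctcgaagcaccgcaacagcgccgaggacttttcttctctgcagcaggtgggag

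Genes for contact with the basement membrane were higher as a group in MaSC-enriched cells: 17 of 22 rose and none fell, with a median log2 difference of 1.15. Col17a1, a transmembrane collagen of the hemidesmosome, measured 14.09, 13.87, 13.03, 13.34 and 13.86 in MaSC-enriched arrays, against 8.55, 8.03, 10.03, 9.47 and 6.74 in luminal progenitor arrays. The lowest MaSC-enriched array was 3.01 log2 units above the highest luminal progenitor array (log2 difference 5.08, adjusted p = 8.78e-07, limma). The log2 difference was 4.71 for Col7a1, the anchoring fibril collagen, 3.88 for the laminin chain Lama1, 3.09 and 3.67 for Col4a1 and Col4a2, which form the collagen IV network, and 2.58 for the heparan sulfate proteoglycan perlecan, Hspg2. The laminin chains Lama2, Lama4 and Lama5 had log2 differences of 0.02, 0.10 and 0.06 and were not called. Among integrins, the receptors for these proteins, 7 of 19 subunits were higher and 2 lower. Itga9, a subunit that binds tenascin and osteopontin, measured 11.51, 10.78, 10.06, 10.90 and 11.17 in MaSC-enriched arrays, against 6.24, 5.74, 8.10, 9.65 and 5.81 in luminal progenitor arrays. Luminal progenitor replicate 4 came close to the MaSC-enriched range and the other 4 lay well below it (log2 difference 4.22, adjusted p = 1.91e-07, limma). Itga1, Itga7, Itga5 and Itga3 followed with log2 differences of 3.00, 2.25, 1.96 and 1.83. Against them, Itgav and Itgb6, which pair as a receptor that activates latent TGF-beta, were lower, with log2 differences of -1.23 and -1.05, and with the mean of all its probes the call of Itgav was lost.

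Interstitial matrix genes also rose, 13 of 18, with a median log2 difference of 1.67, led by elastin (Eln, log2 difference 3.68), the elastic fibre protein Fbln2 (2.86), the small proteoglycan Bgn (2.86) and Sparc (2.85). Collagen I and III genes and decorin stayed apart from this: Col1a1, Col3a1 and Dcn had log2 differences of 0.62, 0.40 and 0.12 and were not called. The fibroblast list gave 5 of 16 higher and none lower, with a median log2 difference of 0.51 and a range of -0.42 to 2.35. Without MaSC-enriched replicate 2 it gave 8 higher. Pdgfra and Dpt, with log2 differences of -0.23 and -0.20, were among the 11 members not called. The mean log2 level of this list was 9.24 to 11.1 in MaSC-enriched arrays, highest in pools 3 and 4, and 8.76 to 9.82 in luminal progenitor arrays. No fibroblast marker was at background throughout either subset, and their part in the matrix result was not tested. Proteases and their inhibitors were higher for 10 of 21 genes, among them Adamts1 (log2 difference 3.69), which cleaves large proteoglycans, the inhibitor Timp3 (3.22) and the plasminogen activators Plau (2.62) and Plat (2.30), and only the membrane-bound Mmp16 was lower (-2.64).

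Cell junctions divided between the subsets by type. Of 16 tight junction genes 10 were lower in MaSC-enriched cells, with a median log2 difference of -2.49. Cldn6, a claudin, measured 5.63, 5.66, 8.29, 7.10 and 6.34 in MaSC-enriched arrays, against 10.21, 10.005, 10.64, 10.56 and 10.44 in luminal progenitor arrays. The luminal progenitor arrays lay within 0.64 log2 units of each other, and MaSC-enriched replicate 3 was the highest of a lower group (log2 difference -3.88, adjusted p = 9.98e-08, limma). The scaffold Tjp3, occludin (Ocln) and the claudins Cldn3 and Cldn4 had log2 differences of -3.65, -3.31, -3.17 and -3.10, whereas the scaffold Tjp1 and the adhesion protein F11r had -0.40 and -0.34 and were not called. The 1 higher member, Esam (2.16), is an adhesion molecule of endothelial tight junctions and stands on the endothelial list too, and it lost its call without luminal progenitor replicate 1 (1.57). Cadherins and desmosome genes split: P-cadherin (Cdh3) and Cdh13 were higher by 5.19 and 3.58 on the log2 scale, as was the plakophilin Pkp1 (2.51), whereas Pkp2 (-3.45) and the cornified envelope linkers Evpl (-2.61) and Ppl (-1.86) were lower. E-cadherin, Cdh1, had a log2 difference of -0.74 and was not called, although every MaSC-enriched array lay below every luminal progenitor array and 1 of its 2 probes was called lower. In gap junctions, Gja1 (connexin 43) was higher by 2.24 and Gjb2 (connexin 26) was lower, with a log2 difference of -3.39. Aquaporins divided as well, with log2 differences of 3.65 for Aqp9 and -3.69 for Aqp5, a water channel of secretory glands. Keratins were exchanged in the same way: Krt15, Krt17, Krt23, Krt14 and Krt16 were higher together with Krt5, and Krt7, Krt19, Krt18, Krt8 and Krt6b were lower, for example by log2 differences of 4.69 for Krt15 and -2.79 for Krt7.

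**Figure D3:**
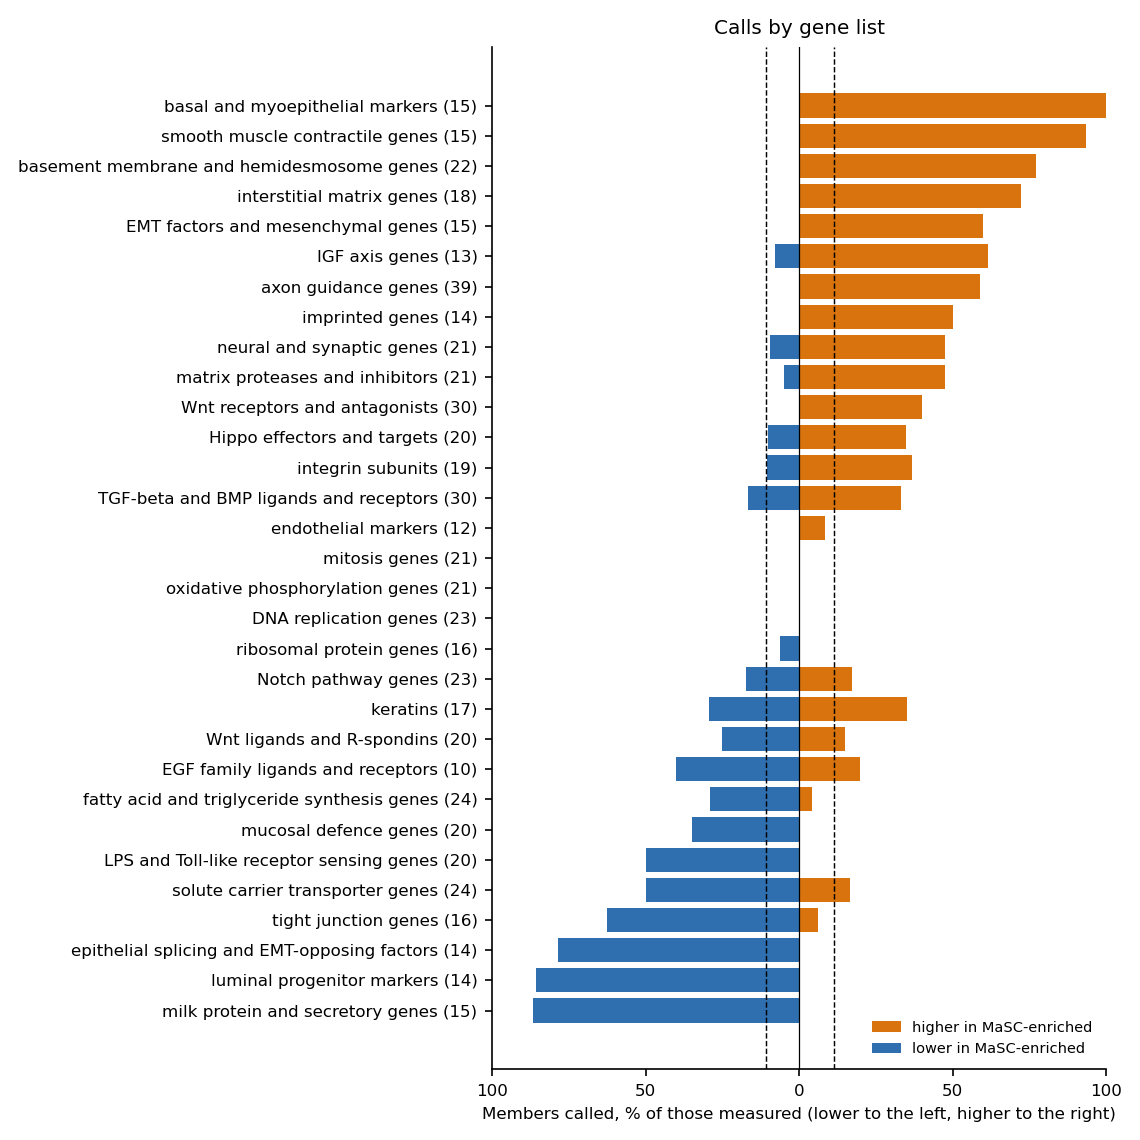
Share of the measured members of 31 gene lists called higher (orange, to the right) or lower (blue, to the left) in MaSC-enriched cells, in percent, with the number of members measured beside each name. Dashed lines mark the shares over all genes, 11.3% higher and 10.9% lower, and contractile, basement membrane and axon guidance genes extend to the right only, while milk, Toll-like receptor and tight junction genes extend mainly to the left.

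Factors that drive or mark epithelial-mesenchymal transition were higher for 9 of 15 genes and lower for none. Snai2, a zinc-finger repressor of epithelial genes, led them (log2 difference 4.46, adjusted p = 1.73e-08, limma), and the intermediate filament gene Vim (2.56), Twist2 (1.41) and Zeb1 (1.21) followed, while Snai1 (-0.02) and Twist1 (0.40) were not called. Zeb1 was not called without luminal progenitor replicate 1 or 5 or MaSC-enriched replicate 3, 4 or 5, and over all single omissions its log2 difference lay between 0.91 and 1.69. Their epithelial counterparts moved the other way, 11 of 14 lower with a median log2 difference of -1.36. Rbm47 and Esrp2, RNA-binding proteins of epithelial splicing, had log2 differences of -2.69 and -1.57, the transcription factor Grhl1 -2.63 and the matriptase gene St14 -1.89. Stromal arrays averaged above MaSC-enriched arrays for 760 of the 1841 higher genes (41.3%). Snai2 was not among these, at a mean of 10.3 in stromal arrays, against 10.995 in MaSC-enriched arrays.

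Wnt ligands support mammary stem cells. Of 20 ligands and R-spondins, 3 were higher and 5 lower. Wnt10a measured 11.84, 11.72, 9.55, 9.84 and 12.06 in MaSC-enriched arrays, against 5.81, 5.68, 6.46, 6.18 and 4.93 in luminal progenitor arrays. All MaSC-enriched arrays were clear of the luminal progenitor range, although those of pools 3 and 4 were lower than the rest (log2 difference 5.31, adjusted p = 4.63e-08, limma). Wnt6 was higher by 4.59 on the log2 scale and the non-canonical ligand Wnt11 by 0.98. The ligands lower in MaSC-enriched cells were Wnt4, a target of the progesterone receptor, Wnt7b, Wnt5b, Wnt5a and Rspo1, with log2 differences of -2.83, -2.67, -1.78, -0.95 and -2.07, and Wnt5a was not called without MaSC-enriched replicate 1 (-0.91) or 5 (-0.80) or without pools 3 and 4 (-0.97). For Wnt4 and Wnt7b the mature luminal arrays averaged higher still, at 11.29 and 10.82 log2 units, against 9.91 and 10.21 in luminal progenitor arrays. On the receiving side 12 of 30 receptors and antagonists were higher and none lower. Lgr5, an R-spondin receptor that marks stem cells of the intestine, measured 11.32, 10.59, 6.99, 7.39 and 9.91 in MaSC-enriched arrays, against 5.10, 5.51, 5.53, 4.55 and 5.55 in luminal progenitor arrays. The MaSC-enriched values split into 3 high arrays and the 2 of pools 3 and 4, which were still above the luminal progenitor range, and that range reached little above background (log2 difference 4.28, adjusted p = 4.12e-06, limma). The frizzled receptors Fzd3, Fzd7 and Fzd2 and the receptor kinase Ror2 were higher by 2.43, 2.31, 1.42 and 2.08 on the log2 scale, and Fzd8 by 0.77, which was not called without luminal progenitor replicate 1 (0.64) or MaSC-enriched replicate 1 (0.58). Secreted antagonists were among the strongest members, with log2 differences of 4.81 for Dkk3, 4.41 for Wif1, 4.04 for Sostdc1 and 1.76 for Sfrp1. Of the genes that the pathway induces as feedback, Nkd1 and Nkd2 differed by 4.26 and 4.28 and Axin2 by 0.95, whereas Lef1, at background on 9 of 10 arrays, was not called. The call of Axin2 was lost without luminal progenitor replicate 1 or 5 or MaSC-enriched replicate 1, 2 or 5 (log2 difference 0.65 to 1.27 over all single omissions). Cyclin D1, Ccnd1, was lower, with a log2 difference of -0.79, and without MaSC-enriched replicate 1 (-0.54) or luminal progenitor replicate 3 (-0.70) it was not called.

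**Figure D4:**
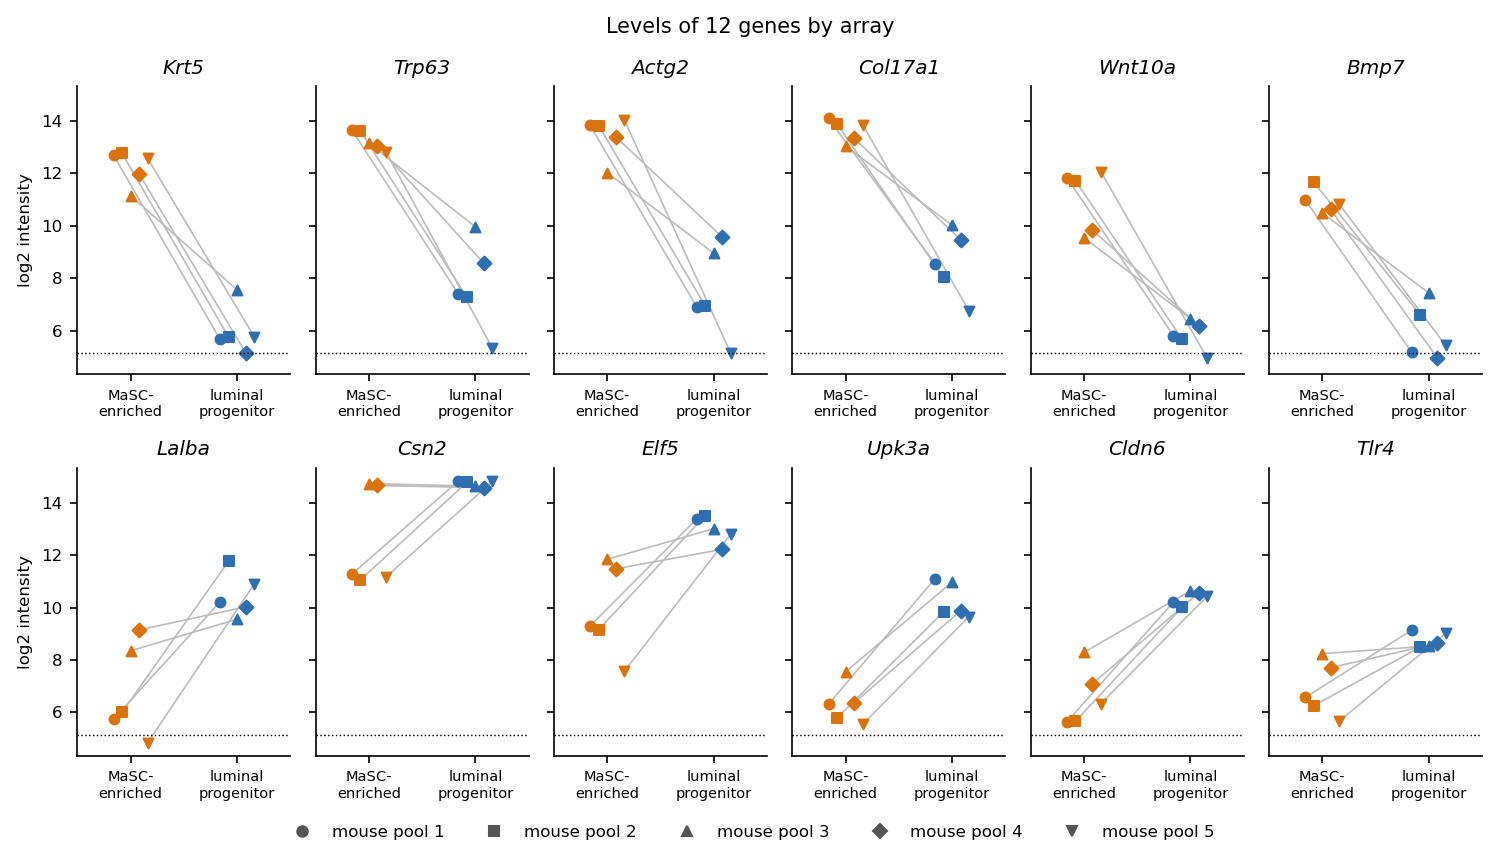
Log2 intensity of 12 genes on each array, with MaSC-enriched arrays (orange) left of luminal progenitor arrays (blue), lines joining arrays of 1 mouse pool and the dotted line at the median background level. The upper row holds genes higher in MaSC-enriched cells and the lower row genes lower in them, and in each gene of the lower row the subsets lie closest to each other in pools 3 and 4.

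In the Notch pathway, in which ligands on one cell activate receptors on its neighbour, 4 of 23 members were higher, 4 lower and 15 not called. Dll1 measured 12.08, 11.13, 10.24, 11.12 and 11.60 in MaSC-enriched arrays, against 6.87, 6.50, 7.93, 7.84 and 6.84 in luminal progenitor arrays. The groups were 2.32 log2 units apart (log2 difference 4.18, adjusted p = 4.20e-08, limma), and the other ligand with a large difference, Jag2, was higher by 3.99. The Deltex gene Dtx1 was higher by 0.83, as was Mfng, a glycosyltransferase that modifies Notch receptors, by 1.93, which lost its call without luminal progenitor replicate 1, 2 or 5 or MaSC-enriched replicate 3 or 4 (1.19 to 1.82). The receptor Notch1, the target gene Hey1 and the Deltex gene Dtx4 were lower in MaSC-enriched cells, with log2 differences of -1.45, -2.57 and -1.08, and the target Hey2 with -1.09, which was not called without MaSC-enriched replicate 1 (-0.85) or 2 (-0.80). Hey1 measured 10.28, 10.43, 12.24, 11.20 and 9.65 in MaSC-enriched arrays, against 13.59, 13.28, 13.05, 12.64 and 13.15 in luminal progenitor arrays. Pool 3 gave the highest MaSC-enriched value, and the groups stayed apart. Jag1 (1.22), Notch3 (-0.86), Hes1 (-0.47) and Rbpj (0.17) were not called.

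Among TGF-beta and BMP genes 10 of 30 were higher and 5 lower. Bmp7 measured 10.99, 11.66, 10.49, 10.62 and 10.82 in MaSC-enriched arrays, against 5.17, 6.60, 7.44, 4.96 and 5.43 in luminal progenitor arrays, and the ranges were 3.05 log2 units apart. Its log2 difference was 4.90 (adjusted p = 3.84e-09, limma), that of Id4, an inhibitor of basic helix-loop-helix factors, 4.65, that of the activin antagonist follistatin (Fst) 3.84, and that of the co-receptor Tgfbr3 2.81. The ligands Tgfb2, Tgfb3 and Bmp3 were lower, with log2 differences of -1.08, -1.06 and -1.92, and Tgfb1 (-0.19) was not called. Without MaSC-enriched replicate 2 the lower members numbered 3. Id1, Id2 and Id3 had log2 differences of 0.44, -0.20 and 0.18 and were not called, which left Id4 as the single Id gene past the thresholds.

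Of 10 EGF-family ligands and receptors, 2 were higher, 4 lower and 4 not called. Nrg1, a ligand of ErbB3 and ErbB4, measured 9.26, 9.58, 10.13, 9.18 and 11.04 in MaSC-enriched arrays, against 4.90, 5.02, 6.30, 5.91 and 5.83 in luminal progenitor arrays. Luminal progenitor values lay at or near background and the groups were apart (log2 difference 4.31, adjusted p = 4.47e-10, limma). Egfr was higher by 1.00 on the log2 scale. The receptors Erbb2 and Erbb3 and the ligand betacellulin (Btc) were lower, with log2 differences of -1.22, -1.10 and -3.48. The IGF axis rose for 8 of 13 genes, with a single fall. Igfbp3 measured 12.46, 13.22, 11.80, 12.54 and 12.50 in MaSC-enriched arrays, against 7.57, 7.44, 8.89, 8.50 and 6.80 in luminal progenitor arrays, and stromal arrays averaged 11.78. Its log2 difference of 4.73 was followed by 1.97 for the growth factor Igf2, 1.05 for the receptor Igf1r and 5.26 for Igfbp2, among the 15 largest, while Igfals, a subunit of the circulating complex, was lower (log2 difference -2.93). In the FGF group 2 of 18 genes were higher, a share near the 11.3% over all genes, while 1 was lower and 15 were not called. The higher genes were the ETS factors Etv4 (2.41) and Etv5 (2.26), which FGF receptors induce. Without pools 3 and 4 the higher genes numbered 4. The Hedgehog mediators Gli2 and Gli3 were higher by 1.25 and 1.32 on the log2 scale and the ligand Dhh by 2.07. Gli1 and Ptch1, the usual targets, had log2 differences of -0.14 and -0.15 and were not called. For Gli1, every luminal progenitor array but replicate 2 (5.43) lay at 4.58 to 4.68, below background, where differences are compressed. In the Hippo list 7 of 20 genes were higher, 2 lower and 11 not called, at a median log2 difference of 0.04. Of the effectors, Yap1 and Tead1 were higher by 0.91 and 1.476 and Tead2 was lower (log2 difference -1.90). The target genes Ccn2, Ankrd1 and Axl were higher by 2.56, 2.70 and 2.68, with Ccn1 at -0.41 and not called.

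Axon guidance genes, known first from the wiring of the nervous system, formed one of the larger one-sided groups: 23 of 39 were higher in MaSC-enriched cells and none was lower, at a median log2 difference of 0.71. Without pools 3 and 4 the counts were 20 and 1. The Eph receptor Ephb1 measured 10.36, 9.70, 9.17, 10.09 and 10.60 in MaSC-enriched arrays, against 4.86, 5.40, 6.74, 8.25 and 5.06 in luminal progenitor arrays, and its groups were apart (log2 difference 4.31, adjusted p = 2.35e-08, limma). The secreted repellents Slit2 and Slit3 were higher by 3.81 and 2.26 on the log2 scale and their receptor Robo1 by 1.29. The semaphorins Sema3c and Sema5a were higher by 3.60 and 3.41, the receptor Plxna2 by 2.58 and the netrin Ntn4 by 2.08. Other genes with roles in neurons rose with them, 10 of 21, while 2 fell. Tenm2, a teneurin adhesion protein, Reln, a secreted guide of neuronal migration, and the neurotrophin receptors Ntrk3 and Ngfr had log2 differences of 5.72, 4.71, 3.87 and 3.08, and Bdnf, a ligand of that family, 2.91. Reln was among the brightest of them, at 13.03 ± 0.65 in MaSC-enriched arrays and 8.30 ± 1.81 in luminal progenitor arrays (SD, n = 5 each). The 2 that fell were Cck, the peptide hormone cholecystokinin, and Cntnap2, an adhesion protein of axons. Cck measured 6.48, 6.34, 9.16, 7.74 and 7.13 in MaSC-enriched arrays, against 11.99, 10.56, 10.31, 10.58 and 12.01 in luminal progenitor arrays, with MaSC-enriched replicate 3 highest in its group and the ranges 1.15 log2 units apart (log2 difference -3.97, adjusted p = 5.59e-06, limma).

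Cytokine genes pointed both ways. Cxcl14, a chemokine of epithelia, was higher by 5.50 on the log2 scale and Cxcl12, the ligand of Cxcr4, by 2.74, and the receptor Cxcr4 itself was lower (log2 difference -1.88). Ccl2 was higher by 2.66, and Cxcl15 and Cxcl2 were lower, with log2 differences of -3.89 and -2.03. In the IL-6 family the cytokine Il6 was higher (log2 difference 1.66) and so were Lifr (1.53), the receptor of LIF, and Il6st (1.04), the subunit that the family shares, whereas the ligand Lif was lower (-2.49). Osmr was higher by 0.81, but without MaSC-enriched replicate 1 (0.67) or luminal progenitor replicate 3 (0.68) it was not called, nor was it without pools 3 and 4 (0.78). Stat5a, the mediator of prolactin signalling, was lower (log2 difference -0.80). Lep, the hormone leptin of fat cells, was higher by 2.87, and of the 6 other fat cell markers measured, Adipoq (1.51) was called, but not without luminal progenitor replicate 1, 2 or 5 or MaSC-enriched replicate 2, 3 or 4 (0.94 to 1.62), and Plin1 (0.15) and Fabp4 (0.29) were not called.

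On the luminal progenitor side the clearest group was milk. Of 15 measured milk protein and secretory genes 13 were lower in MaSC-enriched cells and none was higher, with a median log2 difference of -2.54. Lalba, a subunit of lactose synthase, measured 5.74, 6.003, 8.35, 9.15 and 4.85 in MaSC-enriched arrays, against 10.22, 11.77, 9.56, 10.03 and 10.89 in luminal progenitor arrays. The MaSC-enriched arrays of pools 3 and 4 were far above the other 3, which lay near background, yet all remained below the luminal progenitor arrays (log2 difference -3.92 ± 0.61, adjusted p = 4.70e-05, limma). Csn2, beta-casein, measured 11.27, 11.06, 14.73, 14.66 and 11.17 in MaSC-enriched arrays, against 14.83, 14.78, 14.64, 14.58 and 14.81 in luminal progenitor arrays. In pools 3 and 4 the MaSC-enriched intensity was not lower, while pools 1, 2 and 5 differed by -3.56, -3.72 and -3.65 log2 units (log2 difference -2.51, adjusted p = 9.32e-04, limma; -3.62 without pools 3 and 4). The luminal progenitor values lay within 0.25 log2 units of each other and near 15.09, the highest level of any gene on these arrays, so equal intensities there cannot be read as equal levels. Btn1a1 (butyrophilin), Cel (bile salt-stimulated lipase) and the whey acidic protein gene Wap were lower, with log2 differences of -3.90, -3.94 and -3.53, and Plin2 and Xdh, which with butyrophilin coat the milk fat globule, by -2.69 and -1.92. Glycam1 (1.70) and Mfge8 (0.22) were not called. The lactating gland was not sampled, and levels are those of sorted cells from pooled mice.

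The palindrome TTCNNNGAA, to which STAT5 binds downstream of prolactin, was searched in the same promoter windows on both strands. It was present for 4 of the 11 milk genes with an entry, Csn1s1, Csn2, Csn1s2a and Glycam1, for none of 11 contractile genes and for 9.55% of all genes. The promoters of the caseins Csn2 (minus strand, chr5:87699376-87699675), Csn1s1 (plus strand, chr5:87665958-87666257) and Csn1s2a (plus strand, chr5:87774200-87774499) are shown because they hold the match, in capitals, and their genes were called lower. The match begins 93 and 100 bases before the start in Csn2 and Csn1s1 and 20 bases after it in Csn1s2a.
Csn2 promoter: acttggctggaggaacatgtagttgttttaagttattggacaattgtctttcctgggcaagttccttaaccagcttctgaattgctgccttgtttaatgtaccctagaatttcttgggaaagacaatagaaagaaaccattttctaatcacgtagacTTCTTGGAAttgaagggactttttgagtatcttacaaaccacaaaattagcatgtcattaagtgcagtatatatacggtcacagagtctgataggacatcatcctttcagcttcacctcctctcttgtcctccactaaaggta
Csn1s1 promoter: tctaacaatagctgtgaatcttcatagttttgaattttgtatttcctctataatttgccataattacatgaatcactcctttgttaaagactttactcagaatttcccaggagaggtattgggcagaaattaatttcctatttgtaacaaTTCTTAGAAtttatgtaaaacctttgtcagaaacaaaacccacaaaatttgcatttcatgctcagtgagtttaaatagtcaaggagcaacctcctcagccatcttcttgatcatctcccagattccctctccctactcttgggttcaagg
Csn1s2a promoter: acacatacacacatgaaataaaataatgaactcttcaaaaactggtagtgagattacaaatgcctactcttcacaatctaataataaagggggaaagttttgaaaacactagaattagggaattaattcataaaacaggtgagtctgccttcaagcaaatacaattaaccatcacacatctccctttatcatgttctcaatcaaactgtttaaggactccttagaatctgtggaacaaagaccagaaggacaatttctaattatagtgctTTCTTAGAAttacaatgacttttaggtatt

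The transcription factor Elf5, which drives alveolar differentiation, measured 9.30, 9.16, 11.84, 11.48 and 7.57 in MaSC-enriched arrays, against 13.38, 13.51, 13.01, 12.22 and 12.81 in luminal progenitor arrays. The groups did not overlap, and pools 3 and 4 were again the closest (log2 difference -3.47, adjusted p = 6.89e-05, limma). Kit followed with -3.37, and 12 of 14 luminal progenitor markers were lower. The largest fall among all genes was that of Upk3a, a uroplakin of the bladder lining, which measured 6.31, 5.79, 7.55, 6.37 and 5.55 in MaSC-enriched arrays, against 11.11, 9.84, 10.97, 9.87 and 9.66 in luminal progenitor arrays (log2 difference -4.23, adjusted p = 2.68e-08, limma). Its mature luminal level, 10.42, was close to that of luminal progenitors. The next were Folr1, a folate receptor (-4.13), Rasgef1c, a Ras exchange factor (-4.11), and Wfdc3, a secreted protein with a protease inhibitor fold (-4.01). Mature luminal arrays averaged above luminal progenitor arrays for 972 of the 1777 lower genes (54.7%). Those lower genes include 10 of 12 measured markers of hormone-sensing mature luminal cells, such as the estrogen receptor Esr1 (-2.35), the progesterone receptor Pgr (-1.94) and the pioneer factor Foxa1 (-3.45). The orphan receptors Esrrb and Esrrg, relatives of Esr1, fell by log2 differences of -3.28 and -2.70, and Rora by -1.53, while the glucocorticoid receptor Nr3c1 (-0.02) and the vitamin D receptor Vdr (0.14) were not called. Cyp24a1, the enzyme that breaks down vitamin D, was lower (log2 difference -3.68).

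Genes for sensing through lipopolysaccharide and Toll-like receptors were lower in MaSC-enriched cells, 10 of 20 with none higher. Tlr4, the receptor for lipopolysaccharide, measured 6.57, 6.26, 8.25, 7.71 and 5.67 in MaSC-enriched arrays, against 9.14, 8.50, 8.53, 8.64 and 9.02 in luminal progenitor arrays. The groups were separated by a narrow margin set by pool 3, and the stromal arrays, at 10.17, exceeded both (log2 difference -1.997, adjusted p = 3.90e-05, limma). Its partners Cd14 and Lbp were lower, with log2 differences of -2.995 and -2.09, but Ly96, the subunit bound to Tlr4, had -0.54 and was not called, nor was the shared adaptor Myd88 (0.44). Tlr5 and Tlr3 were lower, with log2 differences of -1.34 and -1.13. Secreted defence proteins were lower for 7 of 20 genes (4 without MaSC-enriched replicate 1). Log2 differences were -3.66 for the calprotectin subunit S100a8, -3.27 for Wfdc12 and -1.84 for Pigr, which carries antibodies into milk. Pigr had -1.37 and was not called without MaSC-enriched replicate 1. S100a9, the partner of S100a8, had -0.11 and Lcn2 0.05 (not called). S100a9 lay at 4.78 to 5.05, below background, on every luminal progenitor array but replicate 4 (5.81). Interferon-induced genes gave no single direction, with 4 of 21 higher and 6 lower, and 3 lower without MaSC-enriched replicate 1.

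Of 24 solute carriers 12 were lower and 4 higher. Slc28a3, a nucleoside transporter among the 15 largest falls, measured 6.21, 6.15, 9.67, 8.15 and 5.93 in MaSC-enriched arrays, against 11.46, 10.30, 10.70, 10.52 and 11.09 in luminal progenitor arrays, with pools 3 and 4 high in the MaSC-enriched group and the ranges 0.63 log2 units apart. Its log2 difference was -3.88, and the iodide transporter Slc5a5, the glutamate transporter Slc1a1 and the sodium-glucose transporter Slc5a1 had log2 differences of -3.39, -3.28 and -2.74. The glutamate transporter Slc1a3 and the glucose transporter Slc2a3 were higher, by 3.95 and 3.43, so that a pair of glutamate transporters lay on opposite sides. Fatty acid and triglyceride synthesis gave 7 of 24 lower and 1 higher, including Lpin1 (-2.28), Fads2 (-1.58) and Scd1 (-1.54), while the central synthase Fasn had a log2 difference of 0.05 and a 95% interval of -0.40 to 0.50. The other 16 were not called, and of 14 cholesterol synthesis genes 1 was higher, 1 lower and 12 not called. Aldehyde dehydrogenases divided by member, with log2 differences of 1.63 for Aldh1a1 and -2.81 for Aldh1a3, both of which make retinoic acid. The glycolytic enzyme Aldoc was lower (log2 difference -3.13) and Pfkp was higher (1.52), in a list where 14 of 17 members were not called.

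Several large groups showed little. None of 21 oxidative phosphorylation genes, none of 21 mitosis genes and none of 23 DNA replication genes was called, with log2 differences from -0.32 to 0.43 in the first, -0.52 to 0.83 in the second and -0.78 to 0.79 in the third. A single ribosomal protein gene of 16, Rpl22, was called (log2 difference -0.71), as were 2 of 22 genes of endoplasmic reticulum folding, Xbp1 (-0.99) and Dnajc3 (-0.59). Dnajc3 was not called without luminal progenitor replicate 1, 4 or 5 or MaSC-enriched replicate 1 or 2, where its log2 difference lay between -0.57 and -0.50. Immediate early genes, which respond to tissue dissociation, had 3 of 20 higher and 2 lower, and Fos and Egr1 had log2 differences of 0.13 and 0.05. Among the regulators of the cell cycle a few stood out against this: Ccnd2 (cyclin D2) measured 10.54, 11.45, 10.69, 10.90 and 11.28 in MaSC-enriched arrays, against 6.42, 6.86, 8.11, 8.90 and 5.75 in luminal progenitor arrays, with the luminal progenitor arrays of pools 3 and 4 highest in their group (log2 difference 3.99, adjusted p = 5.72e-07, limma). The retinoblastoma gene Rb1 was lower in every pool, at 11.02 ± 0.39 in MaSC-enriched arrays and 12.90 ± 0.48 in luminal progenitor arrays (SD, n = 5 each; log2 difference -2.01, adjusted p = 5.33e-07, limma), and Cdk6 was lower (log2 difference -1.20).

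Among transcription factors not yet named, Irx4, a homeobox gene, was higher by 4.96 on the log2 scale, Sox11 by 3.17, Tbx2 by 2.93, Mef2c by 3.29 and Egr2 by 2.09, while the homeobox gene Irx3 was lower (log2 difference -1.40). Apoptosis regulators of the Bcl2 family had 2 of 15 higher and 5 lower. Log2 differences were 2.80 for Bok, -0.95 for Bcl2, -1.10 for Bcl2l1, -2.97 for Bik and -3.11 for Bcl2l14. Bcl2 was not called without luminal progenitor replicate 1 (-0.60). Imprinted genes, expressed from 1 parental copy, were lower for none of 14 and higher for 7, among them Dlk1 (2.27), Ndn (2.08), Igf2 (1.97) and Mest (1.74). Of the Polycomb, DNA methylation and deacetylase genes 19 of 23 were not called, the exceptions being Tet1 (1.13) and Hdac4 (1.01) on the higher side and Bmi1 (-1.01) and Hdac11 (-1.49) on the lower. Among the 15 largest rises that fall in no list named above were Moxd1, a relative of dopamine beta-hydroxylase (5.21), and Camk4, a calcium-dependent kinase (5.13).

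Markers of other cells moved with the MaSC-enriched subset in part. Of 12 endothelial markers, 1 was called higher with all arrays (Esam), at a median log2 difference of 1.59, none was called without luminal progenitor replicate 1, and 3 to 9 were called without MaSC-enriched replicate 1 or 5 or luminal progenitor replicate 3 or 4. With pools 3 and 4 both left out, 9 were. The pericyte list had 8 of 9 higher, with a median log2 difference of 1.42 and the largest at 2.46, and Notch3 (-0.86) was not called. Its mean log2 level was 7.66 to 9.55 in MaSC-enriched arrays, against 6.50 to 8.06 in luminal progenitor arrays. Des and Mcam of this list are also expressed in smooth muscle cells. Hox genes moved with the choice of arrays too: 4 of 25 were higher, 1 without luminal progenitor replicate 1 or 5 or MaSC-enriched replicate 3 or 4, and 7 without pools 3 and 4. Of 11 blood cell markers measured, Cd3e was higher (1.69) and the others were not called, with Ptprc at or below background on all MaSC-enriched arrays. The part of these cells in the differences above was not tested.

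**Figure D5:**
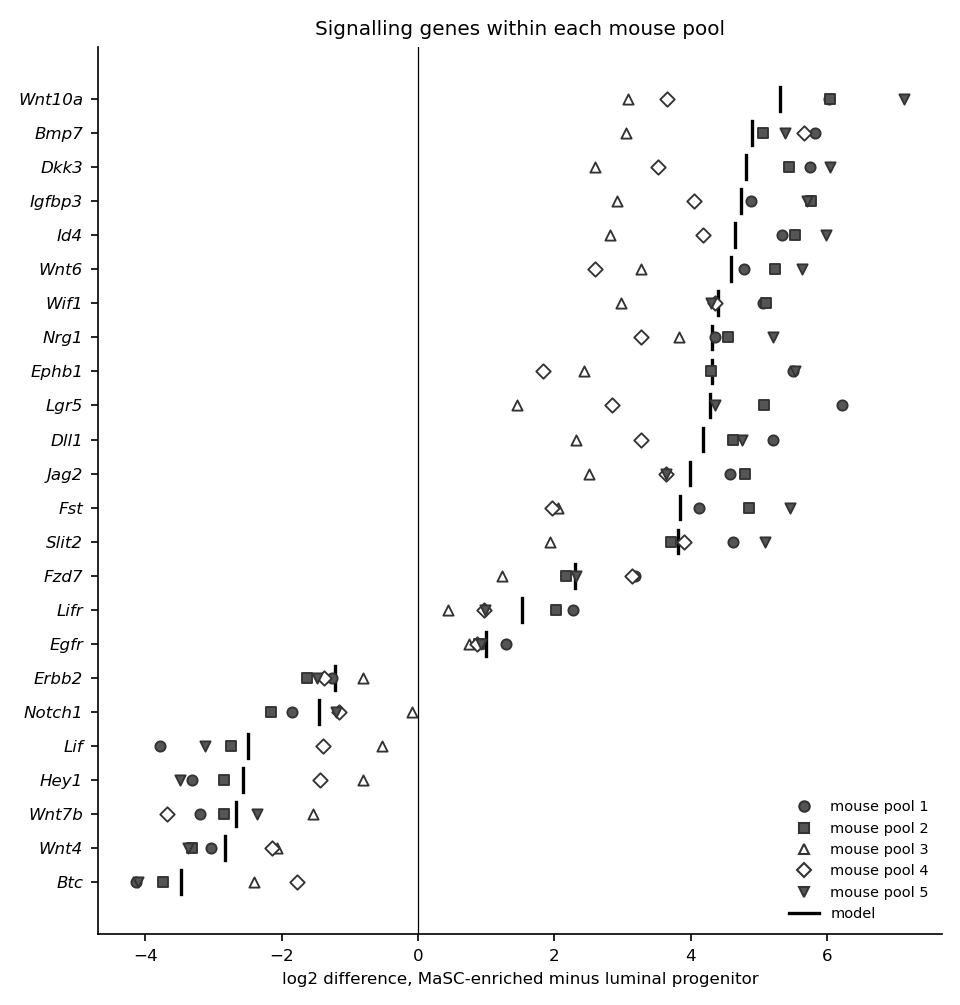
Difference in log2 intensity, MaSC-enriched minus luminal progenitor, within each of the 5 mouse pools for 24 signalling genes, with a bar at the log2 difference of the model. Genes are ordered from Wnt10a at the top to Btc at the bottom, points to the right of 0 are higher in MaSC-enriched cells, and the smallest difference of each of the 24 genes is that of pool 3 or 4 (open points).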

How the data were processed

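RNA of sorted cells (at most 500 ng) had been labelled as cRNA with a kit for RNA amplification, with no separate round of amplification before it, and hybridized to Illumina MouseWG-6 BeadChips. The authors deposited normalised log2 intensities, made with BeadStudio and limma's neqc (a normexp background correction and a quantile normalisation that use the control probes), and differences near background are compressed by such a correction. Versions are not given in the sources used here. The table holds 45281 probes, of which 34885 have 1 gene symbol in the platform annotation, 18 have several and 10378 have none here. A further table of non-normalised values has 18 signal columns headed by running numbers, which were not tied to samples and not used.

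A probe was kept where it exceeded, on at least 1 array, a background level, the upper 1% point of a normal distribution with the median and scaled median absolute deviation of 1504 olfactory and vomeronasal receptor probes (35590 probes and 16324 genes kept, with 662 of the receptor probes among them), and each gene is given by its kept probe with the highest mean. limma 3.58.1 (R 4.3.3, statmod 1.5.0) was fitted over all 18 arrays with a quality weight per array, and arrays of 1 pool were allowed to correlate (0.263), and p-values were adjusted by Benjamini-Hochberg over all kept probes and the 6 pairwise contrasts. The labels name the mouse pool as the biological replicate. Residuals of arrays from 1 pool correlated with a median r of 0.41, against 0.03 for other pools of the same batch and -0.20 across batches, and within each pool the MaSC-enriched residuals correlated with the luminal progenitor ones at 0.36 to 0.55. Pools 1 to 3 form hybridization batch 1 and pools 4 and 5 batch 2. The script was tested on simulated data with known changes.

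Genes named were taken from the 15 largest changes in each direction that held in all 5 pools. Others were taken from up to 4 members per direction in each of 66 gene lists, sort markers and genes the study names for these subsets. Members that were not called or were chosen after their values were seen were added. Not every gene that these rules select is named. The members and lists were chosen with earlier results of these data known, so no list was tested. A result on 1 of the lists is not reported here. Of the genes named and called, 132 have several probes, and for 54 of them some probe was not called, while no probe was called the other way. Alternatives covered the filter, weights, blocks, batches, arrays, probe choice, centring and single omissions. Promoter sequences are RefSeq's (GRCm38.p6).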

Additional observations from a re-analysis of the deposited data

Results flagged for a closer look

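Each of the 290 genes named was searched in each subset for 1 array far from the other 4. The measure is the gap between the highest or lowest array and its nearest neighbour, divided by the range of the 5 arrays, and values above 0.71 were kept. This gave 26 of 580 cases, where chance flags about 1 in 20. The gap as a share of the range stands in parentheses.

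MaSC-enriched replicate 3 lay below the other 4 arrays for Camk4 (0.762), Cdh3 (0.760), Cxcl14 (0.715) and Robo1 (0.889) and above the other 4 arrays for Mmp16 (0.847). MaSC-enriched replicate 2 lay below the other 4 arrays for Eln (0.862), Rora (0.795) and Timp3 (0.736). MaSC-enriched replicate 5 lay below the other 4 arrays for Ccn1 (0.727) and above the other 4 arrays for Krt6b (0.722) and Myocd (0.911). MaSC-enriched replicate 4 lay below the other 4 arrays for Bmi1 (0.772) and above the other 4 arrays for Reln (0.773). The highest share was that of Myocd, at 8.65 in MaSC-enriched replicate 5, against 6.19 to 6.41 on the other 4 arrays.

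Luminal progenitor replicate 4 lay below the other 4 arrays for Btc (0.725), Ccl2 (0.749), Krt19 (0.759) and Myo5b (0.808) and above the other 4 arrays for Lef1 (0.779), Ptprc (0.819) and S100a9 (0.738). Luminal progenitor replicate 3 lay above the other 4 arrays for Elk3 (0.861), Itga1 (0.852), Krt5 (0.743) and Tbx2 (0.898). Luminal progenitor replicate 2 lay above the other 4 arrays for Gli1 (0.882). Luminal progenitor replicate 5 lay below the other 4 arrays for Notch1 (0.723). For Krt5 the level was 7.56 in luminal progenitor replicate 3, against 5.16 to 5.77 on the other 4 arrays, and for Tbx2 it was 6.10, against 4.85 to 4.98. Luminal progenitor replicates 3 and 4 gave 4 and 7 of the cases and MaSC-enriched replicates 2 and 3 gave 3 and 5, while no case came from replicate 1 of either subset.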

How the results depend on the processing

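The counts of 1841 genes higher and 1777 genes lower in MaSC-enriched cells stayed within 1.5 times under all alternatives but a pair of them. With the arrays of hybridization batch 2 alone (2 pools), 149 genes were higher and 29 lower, from fewer samples. With the fold change of 1.5 made part of the test (limma's treat), 961 were higher and 718 lower, since genes near that fold no longer pass. Leaving out 1 array at a time gave 1617 to 1982 higher and 1497 to 1894 lower genes. The mouse pool as a fixed replicate block gave 1959 and 1965, and no replicate block gave 1642 and 1538, where Adipoq, Axin2, Ccnd1, Itgb1, Krt6b, Mfng, Osmr and Zeb1 lost their calls. Centring each array on the probes above background on all arrays gave 1945 and 1623. No gene named and called was called in the opposite direction under any alternative. Among the genes named, the sign of 1 called gene turned, that of the Notch target Hey2, whose log2 difference was 0.076 with hybridization batch 2 alone, and the cause was not tested.

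Of the genes named, 213 lost their calls with hybridization batch 2 alone and 46 with treat, and up to 11 under any other single setting. With the mean of all probes of a gene these were Bcl2, Dnajc3, Hdac4, Hspb1, Il6st, Itgav, Osmr, Robo1 and Zeb1. With hybridization batch 1 alone they were Adipoq, Axin2, Ccnd1, Dtx1, Esam, Fzd8, Hspb1, Mfng, Osmr, Wnt5a and Zeb1. Without array weights they were Adipoq, Bmi1, Hey2 and Mfng. Of the genes named and not called, 10 were called under some alternative, up to 6 under any 1 of them: Ccn1, Cdh1, Glycam1, Jag1, Ly96, Myd88, Notch3, Pdgfra, Pecam1 and Tfap2c. The alternative without the MaSC-enriched and luminal progenitor arrays of mouse pools 3 and 4 was added after the data were seen.

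The number of arrays limits the precision, and the signal of a probe near background gives only a compressed difference. With 5 pools a sign-flip test on 1 gene cannot give a two-sided p under 0.0625, so p-values rest on the model. Pools 3 and 4 carried more endothelial signal, and each pool lies in 1 batch.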

Other observations

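Genes of the apical surface and of epithelial polarity were lower in MaSC-enriched cells for 10 of 18 members and higher for 2. The apical mucin Muc1 (log2 difference -3.58), the recycling-endosome motor Myo5b (-2.67) and the small GTPase Rab25 (-2.36) had the largest falls. Moesin, Msn, which links membrane proteins to cortical actin, was higher (1.92).

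Genes for calcium handling lay on both sides, 4 of 14 higher and 3 lower. The entry channel Trpv6 (log2 difference 2.20) and the sodium-calcium exchanger Slc8a1 (2.65) were higher in MaSC-enriched cells, while Atp2c2 (-1.62), a pump that loads calcium into the secretory pathway, was lower. ETS factors were higher for 5 of 21 members and lower for 3. Ets1 (1.31) and Elk3 (1.33) were higher, and the epithelial factors Elf3 (-1.76) and Spdef (-1.57) were lower together with Elf5. Heat shock and dissociation stress genes were higher for 2 of 14 members, Bag3 (1.18) and Hspb1 (0.91), and Hspa1a had a log2 difference of -0.02 and was not called.

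None of these lists was tested as a set, and the shares over all genes were 11.3% higher and 10.9% lower.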
